A study of Drosophila melanogaster with 6 samples.

Results

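The cytoplasmic ribosomal protein genes encode the proteins of the large and small ribosomal subunits outside mitochondria. They were taken by symbol, as every gene named RpL or RpS followed by a digit or a P, without RpLP0-like and without the mitochondrial mRp genes. The rule found 91 of the 17411 counted genes, of which 53 belong to the large subunit, 3 of them to its stalk, and 38 to the small subunit. The ribosome-associated genes sta and Rack1 carry other symbols and are described separately.

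The series measured polyA-selected RNA by sequencing in 6 Drosophila melanogaster libraries. In 3 libraries, lettered A, B and D, flies carried Mex-Gal4 and an RNAi construct for 9G8, a splicing factor of the SR family encoded by x16 (genotype Mex-Gal4>9G8RNAi). The other 3, also lettered A, B and D, carried the same driver with a double-stranded RNA against GFP (Mex-Gal4>GFPdsRNA). All 6 libraries thus share the driver, which is active in midgut enterocytes, the cells that absorb nutrients, while RNA was taken from whole tissue. The RNAi libraries are labelled as intestines but the controls as fat bodies, and yolk-Gal4 stands in place of Mex-Gal4 in the design text. Ages and sex are not given, and no label says whether replicates are separate collections of flies, so p-values measure only the spread between libraries, which may be technical.

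Ribosomal proteins bind ribosomal RNA in fixed proportions to build the subunits that translate mRNA. Their genes are among the most strongly transcribed of any cell, and their mRNAs carry short 5′ leaders that in animals couple translation to nutrient signalling. In Drosophila, losing a copy of many of these genes gives the Minute phenotype of slow development and thin bristles.

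Total counts per library ran from 26216430 to 66562756, so the floor of 3 counts used for a gene at 0 corresponds to 0.0451 to 0.114 counts-per-million (CPM). The target x16 stood at 6.37, 11.5 and 6.59 CPM in the RNAi libraries and 8.29, 7.15 and 20.03 CPM in the controls, so the groups overlapped (exact two-sided permutation p = 0.5, smallest possible 0.1). The 9 enterocyte markers found summed to between 74426 and 243080 CPM of total counts in every library, controls included. The 10 fat body markers summed to 174 to 534 CPM in RNAi and 152 to 618 CPM in control libraries, so the groups overlapped. Control A stood apart, with 6172 CPM on 10 muscle markers against 537 to 1308 CPM in the other libraries, and 1211 CPM on 5 Malpighian tubule markers against 57.4 to 262 CPM. The 4 progenitor markers summed to 6.42 to 31.0 CPM. In every list, no marker was at 0 in all 6 libraries.

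The members lie on every major chromosome arm, with 19 on 2L, 20 on 2R, 14 on 3L, 23 on 3R, 14 on X and 1, RpS3A, on chromosome 4. Their counted exons had a median length of 877 bases, from 288 to 3835, against 1511 bases for the other 16087 detected genes. The median annotated 5′ UTR was 69.5 bases, against 127 for the other detected genes. Small nucleolar RNA genes, whose products guide the modification of ribosomal RNA, lay inside 27 members (29.7%), against 1.83% of the other detected genes. Exons of 30 members overlap those of another gene, 9 of them on the same strand, and the strand setting of the counting is not given, so reads of these genes could be divided either way. Of the 91 members, 83 passed the filter on low counts, 49 of the large and 34 of the small subunit. The 8 that did not were RpL10Aa, RpL22-like, RpL37-2, RpL7-like, RpS10a, RpS19b, RpS28-like and RpS28a, and none of them had more than 7 counts in any library.

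The members took a large share of every library. It was 16.2%, 13.1% and 10.5% of counts in RNAi libraries A, B and D, while the controls had 10.1%, 11.8% and 9.49% in the same order. RNAi A and B lay above every control, but RNAi D lay below control B, so the groups overlapped. The mean was 13.3% ± 2.85 in RNAi and 10.5% ± 1.19 in control libraries (SD, n = 3), a difference of 2.80 percentage points that did not pass an exact two-sided permutation test (p = 0.2, smallest possible 0.1). Without RNAi A the difference was 1.35 points (exact permutation p = 0.4), and as a share of counts per kilobase it was 1.60 points (exact permutation p = 0.4). It was 4.20 points without RNAi D (exact permutation p = 0.1, the smallest possible) and 4.70 points as a share of the counts outside the 20 genes with most counts (exact permutation p = 0.3). Counting error is small beside this spread, since the 95% Wilson interval was 16.16 to 16.19% in RNAi A and 9.48 to 9.50% in control D. The large subunit took 10.5%, 8.05% and 6.61% of counts in the RNAi libraries and 6.24%, 7.56% and 6.02% in the controls. The small subunit took 5.67%, 5.08% and 3.87% against 3.86%, 4.22% and 3.47%.

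**Figure D1:**
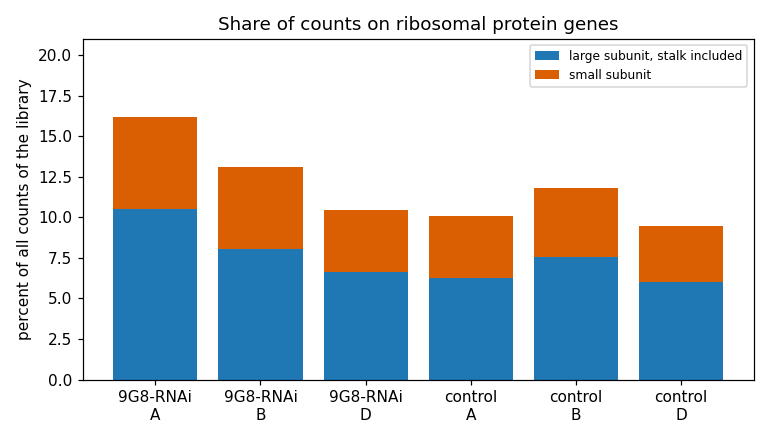
Percent of all counts of each library that fell on ribosomal protein genes, as stacked bars for the large subunit with its stalk and for the small subunit. RNAi A is the highest at 16.2% and control D the lowest at 9.49%, and RNAi D at 10.5% lies below control B at 11.8%.

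Levels per length, in transcripts-per-million (TPM), spread widely among the members. The mean over the 6 libraries ran from 1.31 TPM for RpS5b to 14748 TPM for RpL41, with a median of 1177 TPM over the 83 tested members. RpL41 (FBgn0066084, 2R from 24903416 to 24903935, minus strand, BDGP6), which encodes a very small basic peptide, was the highest member in every library. It measured 22336, 13457 and 12404 TPM in the RNAi libraries and 11691, 16293 and 12307 TPM in the controls. The groups overlapped, with RNAi A highest and control A lowest. RpL39 (FBgn0023170, 2R from 24061853 to 24062431, minus strand), whose product lines the exit tunnel of the nascent peptide, had a mean of 6451 TPM, and RpL23 (FBgn0010078, 2R from 22854383 to 22855694, plus strand), at the face between the subunits, had 5494 TPM. Among the high means of the small subunit were 2386 TPM for RpS19a (FBgn0010412, X from 16637894 to 16639249, plus strand) and 2378 TPM for RpS21 (FBgn0015521, 2L from 2856070 to 2857029, plus strand). The 10 members with most counts held 30.3 to 39.1% of all member counts in the RNAi libraries. In the controls they held 31.5% and 34.6% in B and D but 22.2% in A.

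**Figure D2:**
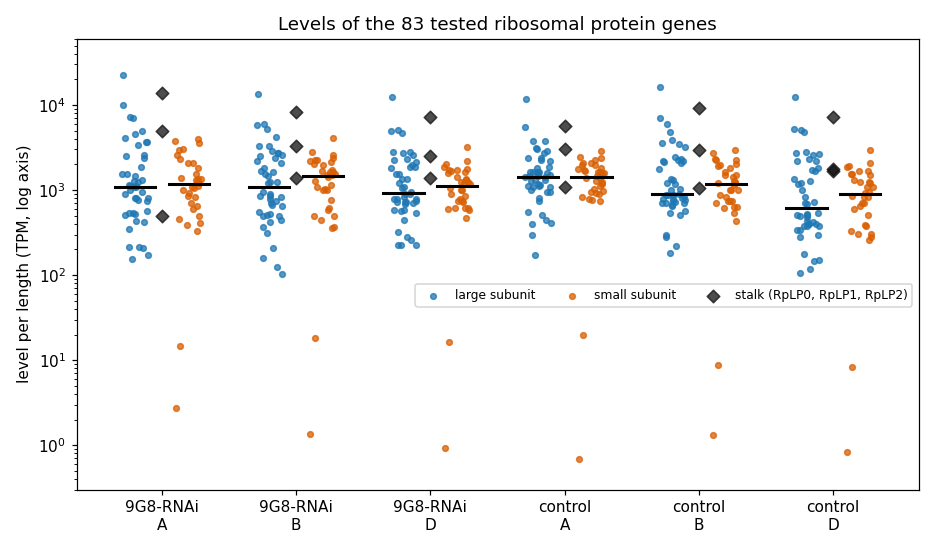
Level per length of each of the 83 tested members in each library, in TPM on a log axis, with circles for the large and small subunit, diamonds for the stalk and bars at the medians of the circles. RpL41 is on top in each library, most members lie within about an order of magnitude of the medians, and the small subunit points far below the rest are RpS15Ab and RpS5b.

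The balance between the subunits did not differ detectably between the groups. The mean log2 level per length of large subunit members exceeded that of small subunit members by 0.51, 0.38 and 0.52 in the RNAi libraries and by 0.52, 0.60 and 0.46 in the controls. The means were 0.47 ± 0.08 and 0.53 ± 0.07 (SD, n = 3), and their difference of -0.06 had an exact two-sided permutation p of 0.5. The small subunit average includes RpS15Ab and RpS5b, at 14.4 and 1.31 TPM against a small subunit median of 1248 TPM. These low genes pull that average down and so raise the excess. Among members of at least 100 CPM the difference between groups was -0.02 (exact permutation p = 0.7). With medians in place of means the difference was 0.05, and with summed levels 0.04 (exact permutation p = 0.8 for each), so its sign depended on the summary. The positive value in all 6 libraries also depended on it: the median large subunit member, at 1101, 1231 and 1067 TPM in the RNAi libraries, lay below the median small subunit member at 1165, 1454 and 1121 TPM. In the controls the order was the same in B and D, at 990 and 712 against 1176 and 888 TPM, and opposite in A, at 1463 against 1428 TPM.

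No ribosomal protein gene changed past the threshold between RNAi and control libraries. In edgeR's quasi-likelihood test with library sizes scaled by trimmed mean of M values (TMM), 0 of 83 members reached a Benjamini-Hochberg adjusted p under 0.05, against 11 of 9285 genes tested (0.118%). By direction those were 8 higher (0.0862%) and 3 lower (0.0323%), and the smallest adjusted p of a member was 0.918. At an unadjusted p under 0.05 there was 1 member, RpS15Ab, against 4.53% of all genes. DESeq2 also called 0 members, against 104 of the 9285 genes.

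The fold changes of the members nevertheless lay mostly on the same side. The log2 fold change, RNAi minus control, was above 0 for 77 of 83 members, against 44.3% of all genes tested, and its median was 0.43 against -0.07 for all genes. All 34 tested small subunit members were above 0 with a median of 0.42, and 43 of 49 large subunit members with a median of 0.44. These counts hold for TMM scaling. With total counts only 64 members were above 0, 27 of the small and 37 of the large subunit, with the length trend removed 64 (28 and 36), and without control A 66 (28 and 38). The 6 below 0 were RpL3, RpL22, RpLP0, RpL9, RpL4 and RpL6, named after their values were seen. On the TMM scale, only in 1 member, RpS15Ab, did every RNAi library lie above every control, against 4.81% of all genes. In 0 members did every RNAi library lie below, against 3.79%. In either direction that was 8.61% of all genes. The members were chosen with these directions known, and they share their libraries, so the count of directions is a description.

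**Figure D3:**
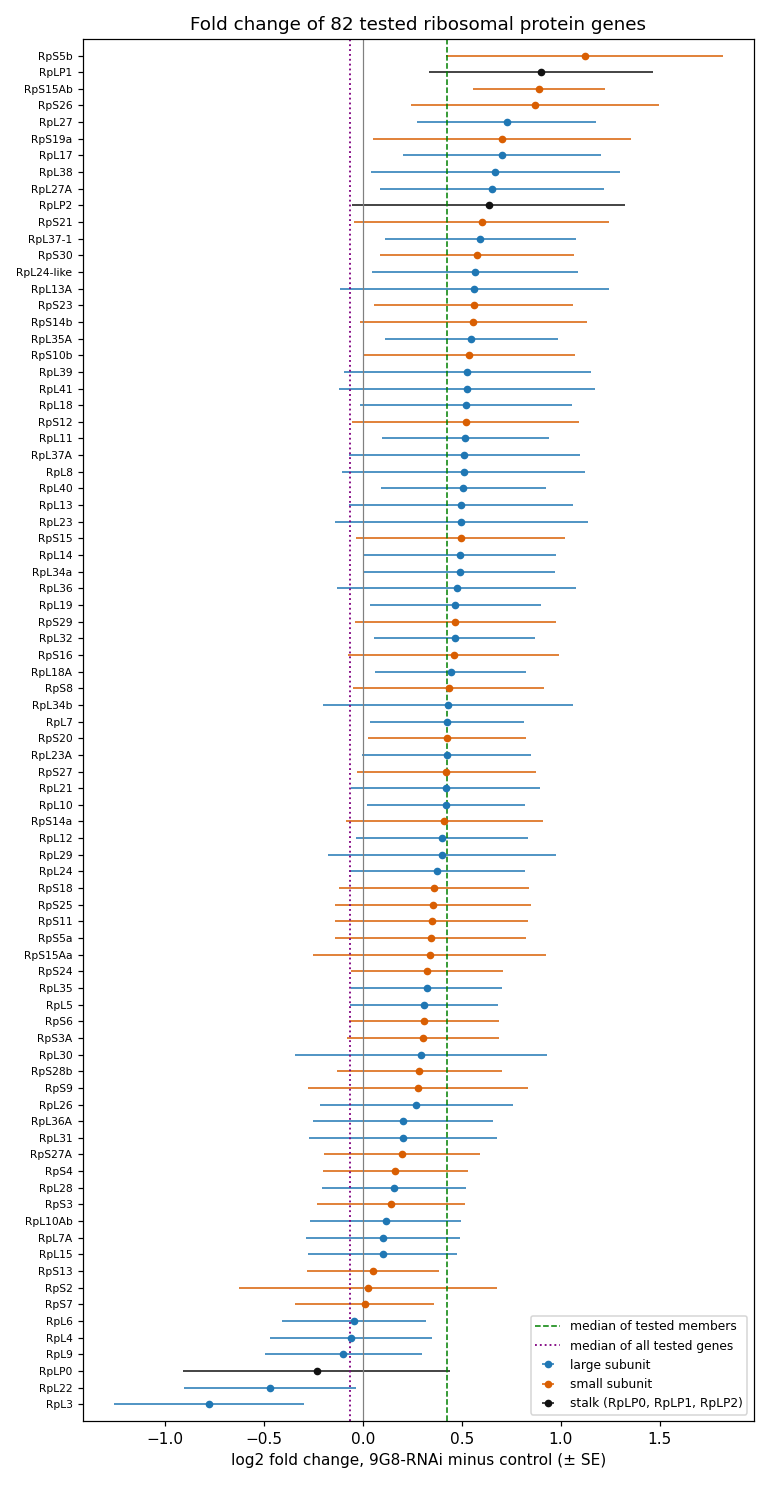
Log2 fold change of 82 of the 83 tested members in TMM-scaled CPM, RNAi minus control, with bars of ± SE, coloured by subunit and ordered by value. The points run from -0.78 for RpL3 to 1.12 for RpS5b around a median of 0.43 (dashed line), against -0.07 for all genes tested (dotted line).

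The size of these fold changes moved with single libraries. In TMM-scaled CPM, 51 of the 83 members were highest in RNAi A and 19 in RNAi B, while 62 were lowest in control A. RNAi D was the highest library for 0 members and the lowest for 8. These ranks depend on the TMM factors, of which a higher one lowers all values of its library. The factors were 0.854, 0.847 and 1.17 in the RNAi libraries and 1.68, 1.11 and 0.635 in the controls. By the members' share of all counts the lowest library was control D at 9.49%, with control A at 10.1%. The mean log2 CPM of the tested members was 10.50, 10.33 and 9.63 in the RNAi libraries and 9.19, 9.85 and 10.19 in the controls, so that control D lay above RNAi D. Without control A, the library with most muscle and tubule marker RNA, the median log2 fold change was 0.15, and without RNAi A it was 0.22. Without control D it was 0.82. With library sizes from total counts only it was 0.25 while that of all genes was -0.33, and with the trend of counts with exonic length removed from each library it was 0.18. The 41 shorter tested members, of 288 to 899 bases, had a median of 0.49 and the 42 longer ones, of 903 to 3835 bases, had 0.36. The part of the muscle and tubule RNA in these values was not tested, and in bulk RNA a smaller share of cells of a type cannot be told apart from less RNA per cell.

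Among core large subunit members, the highest fold changes belonged to RpL27 and RpL17. RpL27 (FBgn0039359, 3R from 25683623 to 25685051, minus strand) measured 1696, 1265 and 690 CPM in the RNAi libraries and 669, 669 and 867 CPM in the controls. On this TMM scale RNAi A and B lay above all controls and RNAi D lay below control D. Per length, without TMM scaling, RpL27 was highest in control A, at 1281 TPM against 1158 TPM in RNAi A. Its log2 fold change was 0.73 ± 0.45 (SE, edgeR adjusted p = 0.918), and 0.42 without RNAi A. RpL17 (FBgn0029897, X from 6741537 to 6744238, minus strand), which lies near the exit of the peptide tunnel, measured 1832, 1056 and 693 CPM against 478, 946 and 776 CPM. Its RNAi D value lay below controls B and D, and the log2 fold change was 0.70 ± 0.50 (SE, edgeR adjusted p = 0.918). It was 0.26 without RNAi A and 0.44 without control A. RpL41 measured 10611, 5840 and 3559 CPM against 1978, 5004 and 6918 CPM, with control D above RNAi B and D and a log2 fold change of 0.53 ± 0.65 (SE). Its value was 0.022 without RNAi A, 0.12 without control A, 0.83 without RNAi D and 1.01 without control D.

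The lowest fold changes belonged to RpL3 and RpL22. RpL3 (FBgn0020910, 3R from 11221894 to 11225173, plus strand), whose product reaches the peptidyl transferase centre where peptide bonds form, measured 573, 309 and 447 CPM in the RNAi libraries and 486, 1203 and 592 CPM in the controls. On the TMM scale control B stood far above the other 5 libraries, and control A lay below RNAi A. Per length, without TMM scaling, controls A and B both lay above every RNAi library and control D did not. The values were 173, 102 and 223 TPM in the RNAi libraries and 412, 562 and 151 TPM in the controls. The log2 fold change was -0.78 ± 0.48 (SE, edgeR adjusted p = 0.918), and -0.30 without control B. RpL22 (FBgn0015288, X from 762560 to 765130, minus strand), a protein of the outer surface that also binds other RNAs, measured 342, 183 and 258 CPM against 260, 540 and 286 CPM. It too was highest in control B and lowest in RNAi B, with a log2 fold change of -0.47 ± 0.43 (SE). Without control B this was -0.077, without RNAi B -0.27 and without RNAi A -0.71. Exons of RpL3 overlap a snoRNA gene on the same strand and an antisense RNA gene on the other, and those of RpL22 overlap the noncoding lncRNA:CR42491 on the same strand, so part of their counts is uncertain.

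The stalk, which recruits the translation factors that hydrolyse GTP, gave fold changes of both signs, none past the threshold. RpLP2 (FBgn0003274, 2R from 16586129 to 16586732, plus strand), which has no intron, measured 12502, 6736 and 3881 CPM in the RNAi libraries and 1833, 5320 and 7732 CPM in the controls. RpLP1 (FBgn0002593, 2L from 419952 to 420864, plus strand) measured 5661, 3435 and 1737 CPM against 1243, 2184 and 2377 CPM. On this TMM scale both were highest in RNAi A and lowest in control A, and their groups overlapped. Per length RpLP1 was lowest in control D, at 1762 TPM against 3062 TPM in control A. The log2 fold changes of RpLP2 and RpLP1 were 0.64 ± 0.69 and 0.90 ± 0.57 (SE). Without RNAi A these were 0.099 and 0.42, and without control A 0.19 and 0.63. RpLP2 was 1.19 without control D and 0.96 without RNAi D. RpLP0 (FBgn0000100, 3L from 22075867 to 22077487, plus strand), which anchors RpLP1 and RpLP2 to the ribosome, measured 967, 2474 and 1646 CPM against 763, 1338 and 3881 CPM. It was low in RNAi A, where its partners peaked, and its log2 fold change was -0.23 ± 0.68 (SE, edgeR adjusted p = 0.957). That value was 0.79 without control D, 0.04 without RNAi A, -0.67 without control A, -0.61 without RNAi B and -0.48 without control B. Of the summed stalk TPM, RpLP0 made up 2.53%, 10.7% and 12.5% in the RNAi libraries and 11.0%, 7.96% and 15.5% in the controls.

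In the small subunit the highest and lowest values belonged to genes of very different abundance. RpS15Ab (FBgn0033555, 2R from 10821676 to 10822399, plus strand), an intronless copy of RpS15Aa, measured 15.8, 18.1 and 10.6 CPM in the RNAi libraries and 7.66, 6.00 and 10.4 CPM in the controls. The lowest RNAi value lay just above the highest control, and the log2 fold change was 0.89 ± 0.33 (SE, edgeR adjusted p = 0.918). RpS5b (FBgn0038277, 3R from 14900432 to 14901563, minus strand) measured 3.86, 1.76 and 0.786 CPM against 0.341, 1.22 and 1.38 CPM, with overlapping groups and a log2 fold change of 1.12 ± 0.70 (SE). That value was 0.38 without RNAi A and 0.66 without control A. At the other end stood RpS7 (FBgn0039757, 3R from 30206447 to 30209020, minus strand), needed for small subunit rRNA processing in human cells. On the TMM scale it was among the steadiest members, at 702, 563 and 590 CPM against 591, 696 and 555 CPM. Its log2 fold change was 0.01 ± 0.35 (SE). RpS2 (FBgn0004867, 2L from 9896265 to 9897552, minus strand), at the entry of the mRNA channel, had nearly the same fold change, 0.02 ± 0.65 (SE). Its spread on the TMM scale was far wider, at 1517, 2775 and 1864 CPM against 603, 1875 and 3575 CPM. Per length, without TMM scaling, RpS7 ran from 278 TPM in control D to 981 TPM in control A. RpS2 ran from 846 TPM in RNAi A to 1721 TPM in RNAi D.

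RpL40 and RpS27A are made as fusions with ubiquitin, the protein tag for degradation. RpL40 (FBgn0003941, 2L from 4227699 to 4228561, plus strand) measured 1241, 1086 and 630 CPM in the RNAi libraries and 630, 626 and 825 CPM in the controls. RpS27A (FBgn0003942, 2L from 10408352 to 10410456, plus strand) measured 959, 807 and 527 CPM against 702, 574 and 728 CPM. On this TMM scale RNAi A and B exceeded all controls in both genes, while RNAi D fell among or below them. Per length, without TMM scaling, both genes were highest in control A, at 1809 TPM for RpL40 and 2241 TPM for RpS27A. In RNAi A they stood at 1269 and 1091 TPM. The log2 fold changes were 0.51 ± 0.42 and 0.20 ± 0.39 (SE), and the sign for RpS27A turned to -0.10 with total counts only and -0.21 with the length trend removed. Without RNAi A the values were 0.31 and 0.01, and RpS27A was 0.10 without control B, 0.35 without control D and 0.40 without RNAi D.

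To see whether single members departed from the rest, counts were also scaled to the summed counts of the members in each library. In this edgeR fit, 0 of 83 members passed the threshold, against 124 of all genes (1.34%). DESeq2 with the same scaling also called 0 members, against 38 of all 9285 genes. RpL3 alone had an unadjusted p under 0.05 (0.008), against 7.23% of all genes, with a log2 fold change of -1.22 ± 0.46 (SE) relative to the members and an adjusted p of 0.236. RpL9 (FBgn0015756, 2L from 11002758 to 11004189, minus strand) was the only member whose groups did not overlap on this scale, lower in RNAi, against 2.71% of all genes lower, and 0 members were higher, against 1.03%, or 3.75% of all genes in either direction. RpL9 had 3722, 4154 and 4080 CPM, taken over the member counts, in the RNAi libraries and 9371, 5512 and 4602 in the controls. Its relative log2 fold change was -0.70 ± 0.46 (SE, edgeR adjusted p = 0.808). Relative to the members, 33 of 83 had a positive log2 fold change, against 12.5% of all genes, and the median was -0.06 against -0.58 for all genes. This scaling holds the summed member counts equal between libraries, so the members lie near 0 by construction. Both contrasts with all genes largely follow from that and are given as a description.

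The mix of members varied between libraries. A member's highest share of the member counts was a median of 1.85 times its lowest. Control A departed most, with an SD of 0.50 over the members' log2 deviations from their mean share against 0.18 to 0.38 in the other libraries, and 42 members had their highest share there. RpS3A, RpL15, RpL5, RpL35 and RpS27A led these, with deviations of 1.11, 1.10, 1.04, 0.96 and 0.96 on the log2 scale. The largest ranges over the libraries were 5.67-fold for RpL3, 5.09-fold for RpLP0 and 4.30-fold for RpL22. RpL3 and RpL22 shared a pattern, with deviations of -1.24 and -1.09 in RNAi B and 1.26 and 1.01 in control B. RpLP0 and RpS2 shared another, with -1.41 and -0.93 in RNAi A and 0.94 and 0.65 in control D. Across the members, which share these libraries, Spearman's rho of the deviation with exonic length was -0.39 in RNAi A, 0.52 in RNAi D and between -0.21 and 0.18 in the other 4. Members holding a snoRNA had a median TMM-scaled log2 fold change of 0.31 and those without had 0.47.

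**Figure D4:**
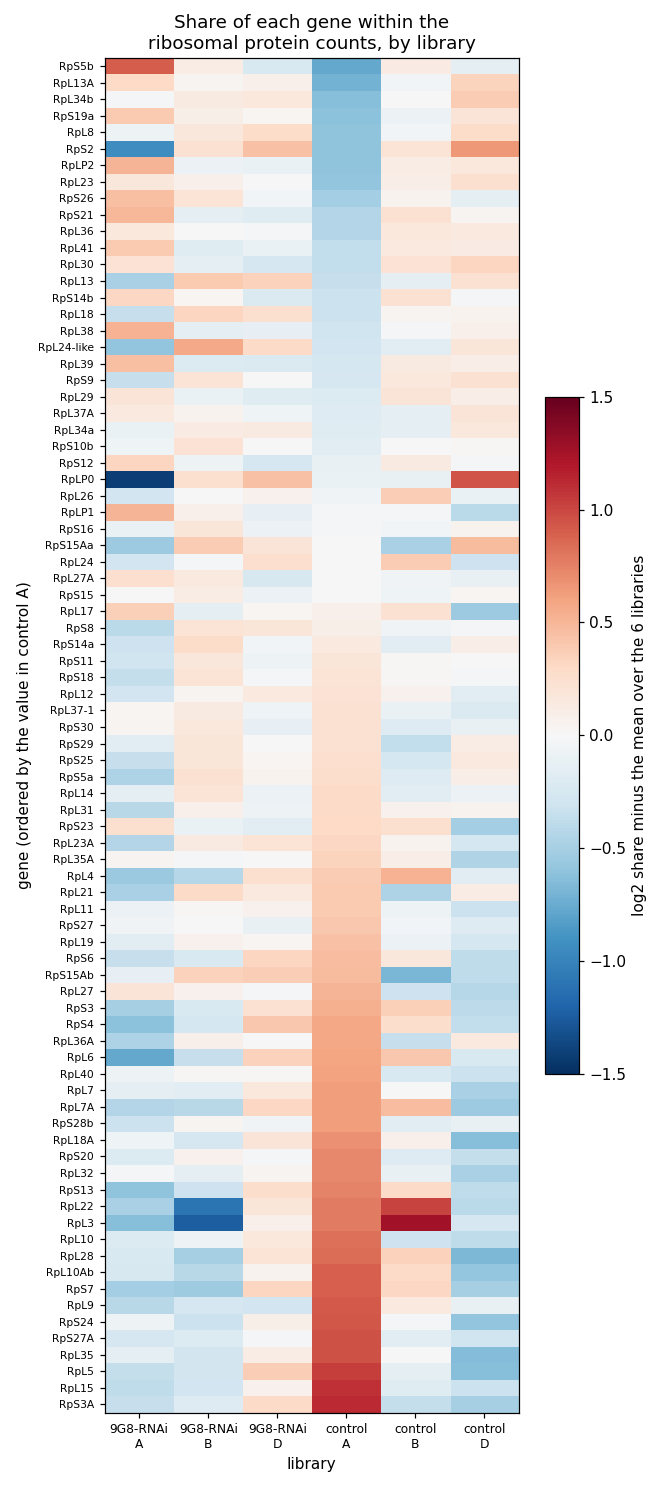
Log2 share of 82 of the 83 tested members within the ribosomal protein counts of a library, minus the gene's mean over the 6 libraries, ordered by the value in control A, with red above and blue below the mean. Control A shows the strongest gradient, and RpL3 with RpL22 and RpLP0 with RpS2 stand out in other columns.

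Several ribosomal proteins are encoded by more than 1 gene. The split of counts within pairs of genes with like symbols varied from near equal to almost complete. A like symbol does not show that both genes make the same protein. The symbols gave 14 pairs, of which 8 had more than 3 counts for both genes in at least 1 group. The ratio within each of these was compared between groups, and no pair passed an exact two-sided permutation test, with raw p from 0.5 to 1.0 and Benjamini-Hochberg adjusted p of 1.0 in all 8 (smallest possible raw p 0.1).

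In 3 pairs both genes held a substantial part of the counts. RpS14b took 50.2%, 35.7% and 36.8% of the pair's counts in the RNAi libraries and 32.2%, 46.3% and 37.6% in the controls. RpS14a and RpS14b are neighbouring, nearly identical copies on X, and how reads matching both were counted is not given, so this split is uncertain. RpL34b took 91.5%, 91.2% and 91.3% against 88.1%, 91.8% and 92.3%, with control A lowest. Per length RpL34b exceeded RpL34a by 2.82 ± 0.03 on the log2 scale in RNAi and 2.74 ± 0.37 in control libraries (SD, n = 3), a difference of 0.07 (exact permutation p = 1.0). RpL24-like, whose relative in yeast is an assembly factor later replaced by RpL24, took 15.6%, 25.7% and 19.0% against 15.8%, 13.6% and 24.2%. RNAi B and control D were both high, and the difference of the log2 ratios was 0.22 (exact permutation p = 0.6).

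In the other 5 pairs compared, nearly all counts fell on a single copy. RpS15Ab held 0.896%, 0.660% and 0.763% of its pair in RNAi and 0.942%, 0.582% and 0.371% in control libraries, from 398, 659 and 824 against 337, 316 and 211 counts, and reads shared with RpS15Aa may be among them. RpS5b, which in Drosophila is enriched in the ovary, held 0.265%, 0.0910% and 0.0795% against 0.0447%, 0.123% and 0.0812%, from 97, 64 and 61 against 15, 64 and 28 counts. RpL22-like, known from the Drosophila testis, had 0, 0 and 4 counts against 1, 1 and 0, while RpL22 had 5786 to 28438 counts per library. RpS19b, known from the Drosophila germline, had 1, 3 and 5 counts against 0, 7 and 0, and RpL37-2 had 4, 0 and 1 against 3, 3 and 0. The 13 testis markers summed to 0.442 to 2.67 CPM of total counts in RNAi and 0.564 to 3.01 CPM in control libraries. The 11 ovary markers summed to 17.1 to 20.7 CPM in RNAi and 9.75 to 45.3 CPM in control libraries, highest in control A. Only 3 of these markers passed the filter on low counts, and any part of ovary RNA in the RpS5b counts was not tested. Of the pairs too low to compare, RpL7-like had 0 counts throughout, RpL10Aa had 1 count in control B alone, and RpS10a, RpS28a and RpS28-like never exceeded 2 counts, so that RpS28-like and RpS28a, paired with each other, were both near 0. Nearly the whole counted model of RpL7-like, 1771 of 1793 bases, overlaps CG34164 on the same strand, so its 0 is uncertain.

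**Figure D5:**
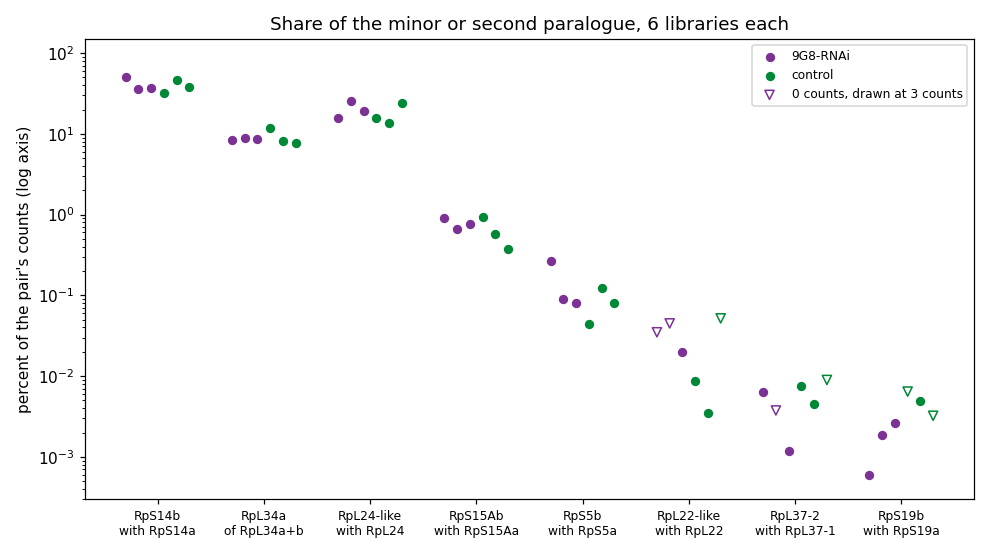
Share of a pair's counts held by the minor or second gene, in percent on a log axis, with 1 point per library and pair, RNAi and control in 2 colours and open triangles for 0 counts drawn at 3 counts. The pairs range from near equal counts for RpS14b to under 0.01% for RpS19b, and the groups overlap in every pair when triangles are read as 0.

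Other genes of translation and ribosome assembly gave a mixed picture, and edgeR called 0 genes in each of 5 lists. A list of 6 ribosome-linked genes outside the symbol rule held sta, Rack1, Nacalpha, bic, Non3 and RpLP0-like. Of these, 5 had a log2 fold change above 0, against 44.3% of all genes, with a median of 0.43. In 2 every RNAi library lay above every control, against 4.81% of all genes. The small subunit protein gene sta measured 7483, 5813 and 3425 CPM in the RNAi libraries and 1282, 4025 and 7633 CPM in the controls, with control A lowest and control D highest (log2 fold change 0.37). Nacalpha, a chaperone of nascent peptides, followed the same order of libraries within the controls and had a log2 fold change of 0.48. Rack1, a scaffold on the small subunit, measured 739, 871 and 698 CPM against 473, 970 and 1051 CPM (log2 fold change -0.11). Of 9 elongation factors 3 were above 0, against 44.3% of all genes, with a median of -0.24. eEF1alpha1, which delivers aminoacyl-tRNA, measured 2481, 1304 and 1887 CPM against 1894, 2852 and 1975 CPM, a log2 fold change of -0.25 with overlapping groups. The values were -0.38 for eEF2, the translocase, and 0.34 for eEF5.

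Of 27 initiation factors 12 were above 0, against 44.3% of all genes, with a median of -0.03. The most abundant, pAbp, eIF4A and eIF1, had log2 fold changes of -0.13, -0.13 and 0.05. In 3 of the 27, eIF4A, eIF3m and eIF3l, every RNAi library lay below every control, against 3.79% of all genes. Of 32 ribosome biogenesis genes 29 were above 0, against 44.3% of all genes, with a median of 0.31, and in 5 every RNAi library lay above every control, against 4.81% of all genes. The most abundant were Non1, hoip and eIF6, with log2 fold changes of -0.05, 0.52 and 0.74. Of these, eIF6 is also counted among the initiation factors. Of 16 genes of RNA polymerase I and its regulators 12 were above 0, against 44.3% of all genes, with a median of 0.14. In 2 every RNAi library lay above every control, against 4.81% of all genes. The log2 fold changes were 0.09 for S6k, 0.10 for Myc and -0.31 for Mnt. Differences between these lists and the ribosomal protein genes were not tested.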

How the data were processed

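RNA was sequenced in 6 libraries, 3 of 9G8-RNAi and 3 of control flies, grouped by sample title. The authors deposited a file of raw, whole-number read counts for each library. The tools were STAR 2.5.2b, Trimmomatic 0.36 and, for counting, featureCounts (Subread 1.5.2), with build BDGP6, per the submitters' processing notes. Not given in the sources used here are their order and settings, the annotation release, the use of strand and the handling of multi-mapping reads, which can move reads between overlapping or near-identical genes. Symbols came from Ensembl release 115, by identifier for 17137 genes and by position with at least 80% reciprocal overlap for 216, with 58 unnamed. Of the members, 86 were named by identifier and 5 by position. Coordinates are those of the deposited files. Depth ranged from 26216430 to 66562756 counts, and Wilson intervals and the floor of 3 counts cover counting error only.

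Groups were compared in R 4.3.3 with edgeR 4.0.16, using filterByExpr, TMM scaling, the robust quasi-likelihood test and Benjamini-Hochberg adjustment over all 9285 tested genes at 0.05. CPM values are TMM-scaled unless total counts are named, and TPM values use the deposited exonic length. A second fit used the member totals as library sizes. Paralogue ratios used counts plus 0.5 per kilobase. Shares and ratios were compared by exact two-sided permutation over libraries in Python 3.11.15. The fits were also run on simulated data with changes set only in genes outside the members. That run does not test a shared shift of the members. As alternatives, scaling used upper-quartile or RLE factors, TMM without the members, or total counts, low-count filters were varied, DESeq2 1.42.0 and limma-voom (limma 3.58.1) replaced edgeR, the length trend was removed, letters entered as a replicate block, and each library was left out in turn.

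The members and 12 gene lists, 5 of translation and ribosome genes and 7 of cell type markers, were chosen with earlier results of these data known, and 152 of 161 list genes were matched. Named members are both genes of each paralogue pair, the ubiquitin fusions, RpL41 and, in each of large subunit, small subunit and stalk, the highest and lowest by level and fold change. In each other list up to 3 genes with the highest mean CPM are named, and the list of ribosome-linked genes outside the symbol rule is given in full. Other genes were named after their values were seen. A member counted in all totals is not reported here by itself. No sequences are shown.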

Additional observations from a re-analysis of the deposited data

How the results depend on the processing

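In every alternative, leaving out each library included, 0 members were called. The number of genes called, 11 in the reported fit, was 17 with total counts only, 50 with no low-count filter, 24 with the length trend removed, 104 with DESeq2 and 4 with limma-voom, and 0 to 11 without single libraries. It was 0 without RNAi B, 2 without RNAi A or RNAi D, 4 without control D and 5 without control B. Relative to the member total, 124 genes were called, 38 with DESeq2, 23 with limma-voom and 0 to 390 without single libraries. The median log2 fold change of the members ran from 0.15 to 0.82 without single libraries. The difference in the members' share of counts ran from 1.35 to 4.20 percentage points without single libraries and was 4.70 without the 20 genes with most counts. The difference between large and small subunit reversed to 0.047 with medians and 0.044 with summed levels.

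The libraries were treated as unpaired, since same-letter deviations for A, B and D correlated at -0.018, -0.347 and -0.460 across genes, which are not independent. RNAi B correlated at 0.496 with control D, and RNAi D at 0.314 with control B. Such values cannot show whether a letter marks a joint collection. With the replicate block 0 genes and 0 members were called, and 5 genes relative to the member total. The members' median was 0.44 with this block, and the sign-flip p of their share of counts was 0.25, the smallest possible. RpLP0 reversed to 0.011 with the block.

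Of 32 named members, 24 kept the sign of their log2 fold change under all 16 settings. With total counts only RpL10Ab reversed to -0.20, RpS27A to -0.10 and RpS7 to -0.26. With the length trend removed RpL10Ab was -0.14, RpS2 -0.11, RpS27A -0.21 and RpS7 -0.18, and RpS2 was -0.00064 with RLE factors and -0.00064 with DESeq2. Without single libraries the ranges were -0.11 to 0.28 for RpL10Ab, -0.028 to 1.16 for RpL34b, -0.035 to 0.99 for RpL39, -0.67 to 0.79 for RpLP0, -0.018 to 1.19 for RpS15Aa, -0.45 to 0.82 for RpS2 and -0.086 to 0.11 for RpS7. For differences of paralogue ratios they were -0.35 to 0.62 for RpL22-like with RpL22, -0.022 to 0.52 for RpL24-like, -0.14 to 0.20 for RpL34b, -0.14 to 0.36 for RpS14b and -0.43 to 1.22 for RpS19b with RpS19a, which was -0.66 with a pseudocount of 3. The cause was not tested. Ratios of RpL22-like, RpL37-2 and RpS19b rest on 7 counts or fewer per library and limit those pairs, and 3 libraries a group cannot reach an exact p under 0.1.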
